A study of Mus musculus with 4 samples.

Results

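The genes described here encode receptors and killing machinery of natural killer (NK) cells: Klrk1, Klrd1, Klrb1c, Ncr1, Nkg7, Gzma, Gzmb, Prf1, Il2rb and Xcl1. They were chosen by name, with earlier results of these data known. Each was read from the array probe sets annotated to that gene alone. By this rule 9 of the 10 genes were measured, by 11 of the 22626 probe sets on the array that are not controls. Klrb1c, which encodes the NK1.1 antigen, has no value, because the only probe set that lists it lists Klrb1b as well.

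RNA came from 4 tumors that grew under the skin of nude mice (NCR Nu/Nu) after injection of cells of a kidney line. All tumor cells were immortalized baby mouse kidney epithelial cells (iBMK) of genotype ATG5-/- that express Bcl-2, so both groups lack the autophagy gene Atg5 and carry the survival gene Bcl-2. In 2 tumors the injected cells made EGFP, a fluorescent protein, and in the other 2 they made p62-EGFP, in which EGFP is fused to the autophagy adaptor p62. The animals' age and sex are not given in the labels, nor whether separate animals or cultures gave the tumors of 1 group, so the p-values measure only the spread between these tumors, which may be technical. Nude mice lack a thymus and make few mature T cells, but they keep NK cells, B cells and myeloid cells, and these enter a tumor as host cells.

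An NK cell weighs activating against inhibitory receptors at the surface of a target cell. Klrk1 (NKG2D) and Ncr1 (NKp46) activate, and Klrd1 (CD94) pairs with NKG2 chains into receptors that read a nonclassical MHC molecule. When activation wins, granules are released: perforin (Prf1) lets granzymes (Gzma, Gzmb) enter the target, whose death they trigger, and Nkg7 is a membrane protein of these granules. Il2rb is the chain shared by the receptors for interleukin-2 and interleukin-15, on which NK cells depend, and Xcl1 is a chemokine that attracts cross-presenting dendritic cells. Most of these genes are also used by cytotoxic T cells, so they mark a killer program as much as one lineage.

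The values are MAS5 signals, a linear measure of brightness that the authors had scaled to one trimmed mean (150.04) on every array. Median signals were 57.7 to 60.9. EGFP tumor 2 stood apart from the other 3 tumors. Summed over 6 pan-leukocyte genes its signal was 5272, against 343 in EGFP tumor 1 and 500.3 and 611 in the p62-EGFP tumors. Every group difference below is therefore given beside the difference between the EGFP tumors. The RNA is that of whole tumors, in which fewer cells of a type and less RNA per cell cannot be told apart.

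Of the 9 measured genes 6 read far higher in EGFP tumor 2 than in the other 3 tumors. Ncr1, Il2rb and Xcl1 were highest there too, at lower signals of 38.0, 60.8 (brighter probe set) and 28.3. In EGFP tumor 2 Gzmb read 985, Klrk1 524, Gzma 427, Nkg7 413, Klrd1 378 and the brighter probe set of Prf1 238. In the other 3 tumors no member probe set exceeded 26.2. For comparison, probe sets of 31 olfactory receptor genes had a 95th percentile of 6.86 to 9.14 per tumor. That these genes are not expressed in the tumors was assumed and not tested. The difference between p62-EGFP and EGFP tumors passed the test for none of the members, and the direction of its median rested on EGFP tumor 2.

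**Figure D1:**
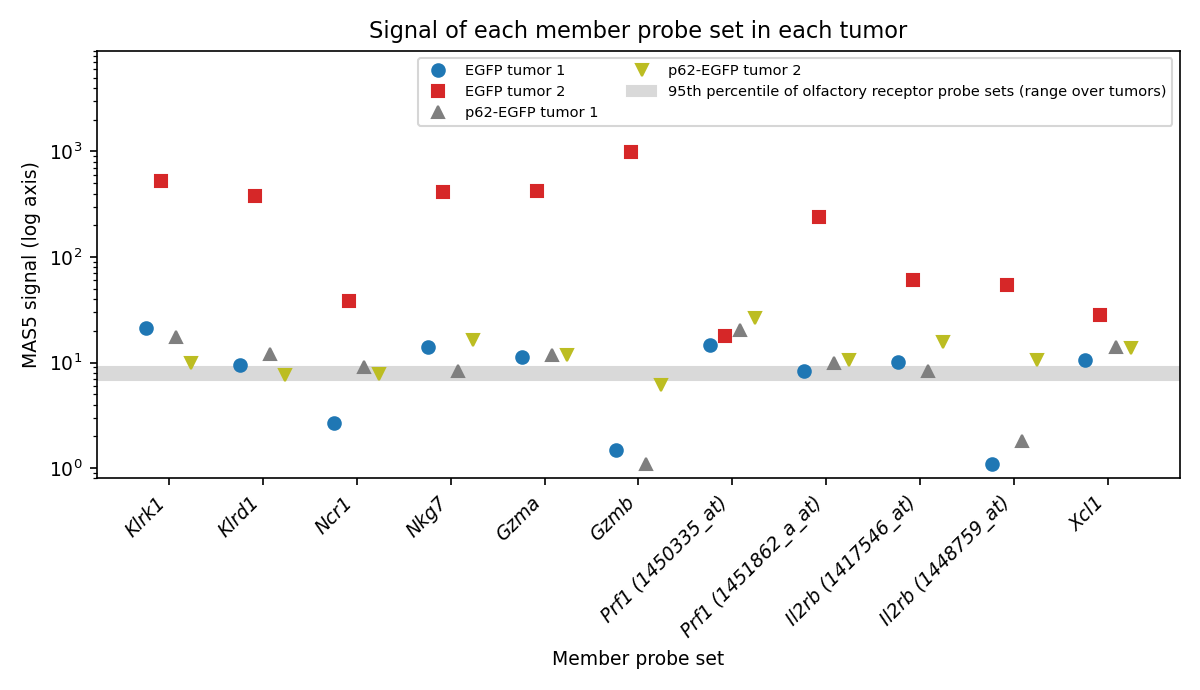
MAS5 signal (log axis) of the 11 member probe sets in each of the 4 tumors, 1 point per tumor; the grey band spans the 95th percentiles of olfactory receptor probe sets, 6.86 to 9.14. EGFP tumor 2 is the highest of the 4 tumors for 10 of the 11, and the exception is one Prf1 probe set.

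Among the receptors, Klrk1 read 21.2 in EGFP tumor 1, 524 in EGFP tumor 2, 17.4 in p62-EGFP tumor 1 and 10.0 in p62-EGFP tumor 2. The groups did not overlap, since EGFP tumor 1 lay a little above both p62-EGFP tumors. Klrd1 read 9.4, 378, 12.0 and 7.7 in the same order. Its p62-EGFP values lay on either side of EGFP tumor 1, so the groups overlapped. Ncr1, the receptor most restricted to NK cells and related innate lymphocytes, was dim: it read 2.7, 38.0, 9.0 and 7.8. EGFP tumor 2 was again the highest, at a level that left the probe set below the filter for testing.

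Among the granule genes, Gzmb, a protease that cleaves caspases, read 1.5 in EGFP tumor 1, 985 in EGFP tumor 2, 1.1 in p62-EGFP tumor 1 and 6.2 in p62-EGFP tumor 2. Only EGFP tumor 2 exceeded the level of the olfactory receptor probe sets for this gene. Gzma, a tryptase-like protease, read 11.4, 427, 11.7 and 11.8, so that 3 tumors lay within 0.4 of each other. Nkg7 read 14.0, 413, 8.4 and 16.4, with EGFP tumor 1 between the p62-EGFP tumors. Prf1 has 2 probe sets, and they disagree. The probe set 1451862_a_at read 8.3, 238, 10.0 and 10.6, and 1450335_at read 14.7, 17.9, 20.4 and 26.2. By the first, perforin followed the granzymes, whereas by the second the lower p62-EGFP value exceeded the higher EGFP value, at low signal. Which of them reports the perforin transcript better was not tested.

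The cytokine receptor chain Il2rb read 10.2, 60.8, 8.4 and 15.6 by its brighter probe set 1417546_at. The other, 1448759_at, read 1.1, 54.6, 1.8 and 10.7, and both put EGFP tumor 2 on top and p62-EGFP tumor 2 next. Xcl1 differed least among the 9 genes, at 10.6, 28.3, 14.2 and 13.9. EGFP tumor 2 was the highest here too, by 0.55 on the log2 scale over the next tumor.

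Differences were computed on log2(signal + 16), a scale that understates the change of dim probe sets. EGFP tumor 2 exceeded EGFP tumor 1 by 5.84 for Gzmb, the first of 22626 probe sets when ranked by this difference. Gzmb in EGFP tumor 1 lay below the olfactory receptor level, so the size of this gap depends on the pseudocount and was 8.62 with a pseudocount of 1. Gzma ranked 16th with 4.01, Klrd1 18th with 3.96, Klrk1 26th with 3.86, Nkg7 28th with 3.84 and the brighter Prf1 probe set 58th with 3.39. With pseudocounts of 1 and 64 the ranks were 1 and 2 for Gzmb, 32 and 48 for Gzma, 27 and 58 for Klrd1, 69 and 42 for Klrk1, 47 and 56 for Nkg7 and 55 and 131 for Prf1. Of the 11 member probe sets, 7 were at least 4-fold higher in EGFP tumor 2 than in EGFP tumor 1, where 1.60% of all probe sets were, and 9 were at least 2-fold higher, where 4.29% were. None was at least 2-fold lower there, where 1.03% were. EGFP tumor 2 was the highest of the 4 tumors for 10 of the 11, against 22.9% of all probe sets, and at least 4-fold over the next tumor for 6, against 1.01%. The median over the 9 genes was 3.84, against -0.03 over all 12393 genes. With 1 tumor on each side these differences have no test. Because the members were chosen with earlier results of these data known, the shares only describe the list.

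**Figure D2:**
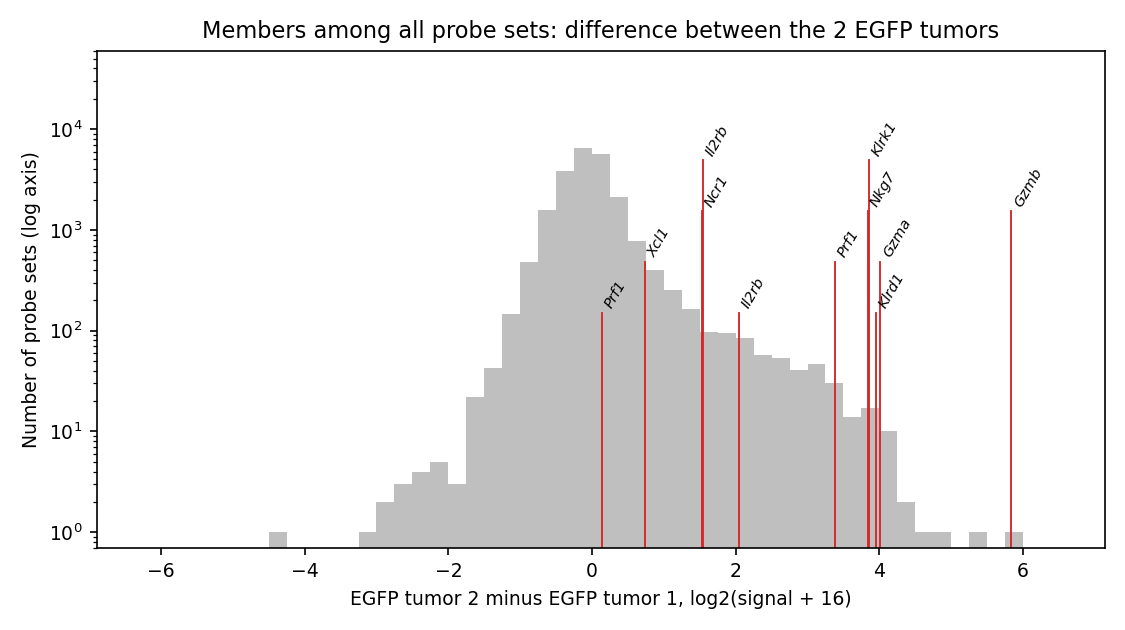
Number of probe sets (log axis) by the difference between EGFP tumor 2 and EGFP tumor 1 on log2(signal + 16), for all 22626 probe sets in grey; red lines, whose height has no meaning, mark the 11 member probe sets. The members run from 0.14 for a Prf1 probe set to 5.84 for Gzmb, at the right end of the distribution.

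The group comparison, p62-EGFP minus EGFP, was fitted in limma over all probe sets whose mean was at or above the 40th percentile. Of the 11 member probe sets 5 passed this filter, 1 each of Klrk1, Klrd1, Nkg7, Gzma and Gzmb, and they passed through EGFP tumor 2 alone. None was called (Benjamini-Hochberg adjusted p of 0.05, limma), and 0 reached an unadjusted p of 0.05, where 0.0884% of the 13576 tested probe sets were called, 0.0295% lower and 0.0589% higher in p62-EGFP tumors. At the unadjusted threshold 5.77% of the tested probe sets were lower and 8.74% higher. Gzmb had a signal of 493 ± 696 (SD, n = 2) in EGFP and 3.65 ± 3.61 in p62-EGFP tumors, a log2 difference of -2.76 (SE 1.80, limma adjusted p = 0.513). Klrk1 had 273 ± 355 and 13.7 ± 5.23, a difference of -2.27 (SE 1.20, limma adjusted p = 0.433). For Nkg7 the difference was -2.01 (SE 1.20, limma adjusted p = 0.475), for Gzma -1.99 (SE 1.24, limma adjusted p = 0.496) and for Klrd1 -1.96 (SE 1.23, limma adjusted p = 0.498). In all 5 the EGFP tumors differed from each other by more than the groups did. With no filter all 11 were tested and 0 were called (limma adjusted p from 0.540 to 0.802). Without this filter the test called 0.0265% of all probe sets. An exact permutation test of a single value, two-sided, cannot go below p = 0.333 with 2 tumors against 2.

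The groups were separate, with p62-EGFP lower, for 1 of the 11 probe sets, that of Klrk1, against 18.2% of all probe sets and 22.2% of those tested. They were separate with p62-EGFP higher for 1, the dim Prf1 probe set 1450335_at, against 26.5%. The median group difference over the 9 genes was -1.96, against 0.03 over all genes. It was -3.93 without EGFP tumor 1 and 0.08 without EGFP tumor 2. Without EGFP tumor 1 the fit tested 6 member probe sets, those of Klrk1, Klrd1, Nkg7, Gzma and Gzmb and the brighter one of Prf1, and called all 6, where it called 20.9% of all tested probe sets. These 6 passed the filter only through EGFP tumor 2, where they are high, so the count supports nothing about the members. That fit takes its spread from the p62-EGFP pair and assumes that the lone EGFP tumor varies like it. Without EGFP tumor 2, 0 of the 11 passed the filter. With no filter in that fit, a setting chosen after seeing the data, 0 of the 11 were called (limma), where 0.00884% of all probe sets were called. With 1 EGFP tumor left, this count decides nothing about the members. The differences in that fit ran from -0.34 for Klrk1 to 0.38 for Ncr1, which was thus higher in p62-EGFP tumors. Ncr1 read 2.7 in EGFP tumor 1 against 9.0 and 7.8, near the olfactory receptor level.

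Set against EGFP tumor 1 alone, the differences of the p62-EGFP tumors ran from -0.30 for Nkg7 to 0.42 for Ncr1 in p62-EGFP tumor 1, and from -0.52 for Klrk1 to 0.64 for an Il2rb probe set in p62-EGFP tumor 2. With the pseudocount added, no member probe set was 2-fold away from EGFP tumor 1 in either of them, where 2.14% and 2.26% of all probe sets were. Nor was any member 2-fold apart on that scale between the p62-EGFP tumors, against 0.614% of all probe sets. These counts cannot show that the members were alike, because the pseudocount is as large as many of their signals and shrinks the folds. In raw signal some members were more than 2-fold apart. Klrk1 read 21.2 in EGFP tumor 1 and 10.0 in p62-EGFP tumor 2, and Gzmb read 1.1 and 6.2 in the p62-EGFP tumors. At signals this close to the bottom of the scale a difference between these 3 tumors could not be resolved.

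The measured members lie on several chromosomes, which some of them share. By the reference gene table Klrk1 and Klrd1 lie on chromosome 6, Ncr1 and Nkg7 on chromosome 7, Prf1 on chromosome 10, Gzma on chromosome 13, Gzmb on chromosome 14, Il2rb on chromosome 15 and Xcl1 on chromosome 1. RefSeq promoter windows of 300 bases (GRCm38.p6) were found for 8 of the 10 genes, in 9 windows, because Ncr1 has 2 starts. They are shown for 5 genes that stood at least 4-fold higher in EGFP tumor 2 than in any other tumor, to set genes that differed together beside each other at the level of sequence. Capitals mark matches on either strand to TGTGGT (the RUNX core), TTCNNNGAA (STAT), GGTGTGA (T-box) and TGANTCA (AP-1).
Gzmb, chr14:56262285-56262584, minus strand: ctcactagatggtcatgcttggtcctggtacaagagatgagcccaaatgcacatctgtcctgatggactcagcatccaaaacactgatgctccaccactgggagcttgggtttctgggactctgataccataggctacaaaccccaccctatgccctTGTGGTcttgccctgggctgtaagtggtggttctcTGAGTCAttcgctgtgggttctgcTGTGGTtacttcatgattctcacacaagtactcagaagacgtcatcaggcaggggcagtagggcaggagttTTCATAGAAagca
Gzma, chr13:113100932-113101231, minus strand: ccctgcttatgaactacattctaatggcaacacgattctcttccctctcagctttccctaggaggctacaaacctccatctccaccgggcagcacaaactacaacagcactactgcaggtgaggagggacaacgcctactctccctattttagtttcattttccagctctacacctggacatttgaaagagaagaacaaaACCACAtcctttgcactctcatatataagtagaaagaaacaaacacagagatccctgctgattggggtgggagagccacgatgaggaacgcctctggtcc
Prf1, chr10:61297586-61297885, plus strand: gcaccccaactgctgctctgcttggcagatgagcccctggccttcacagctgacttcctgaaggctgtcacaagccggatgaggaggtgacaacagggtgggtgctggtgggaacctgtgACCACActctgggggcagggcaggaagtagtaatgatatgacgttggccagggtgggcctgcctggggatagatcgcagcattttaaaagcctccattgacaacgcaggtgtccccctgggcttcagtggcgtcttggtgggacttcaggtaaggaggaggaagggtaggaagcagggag
Nkg7, chr7:43436888-43437187, plus strand: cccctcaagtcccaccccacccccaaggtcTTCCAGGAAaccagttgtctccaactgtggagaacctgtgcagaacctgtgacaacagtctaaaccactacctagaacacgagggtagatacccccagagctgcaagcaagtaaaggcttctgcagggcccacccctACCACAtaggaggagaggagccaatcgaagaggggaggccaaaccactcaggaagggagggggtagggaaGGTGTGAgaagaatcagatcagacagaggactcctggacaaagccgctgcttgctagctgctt
Klrk1, chr6:129623815-129624114, minus strand: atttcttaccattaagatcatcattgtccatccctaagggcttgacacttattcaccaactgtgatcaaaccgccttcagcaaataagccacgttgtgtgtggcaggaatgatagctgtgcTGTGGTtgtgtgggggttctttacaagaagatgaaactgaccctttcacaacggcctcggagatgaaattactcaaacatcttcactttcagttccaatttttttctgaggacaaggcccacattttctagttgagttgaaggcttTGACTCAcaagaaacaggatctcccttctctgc
All 9 member windows, the one of Klrb1c included, held TGTGGT or its reverse complement ACCACA, where 16.8% of all 32851 windows did. In Gzmb a match began at -93 and another at -34 from the start, and in Gzma at -50. The windows of Ncr1 overlap each other and share their matches. The AP-1 letters were found in Gzmb and Klrk1 (7.81% of all windows), the STAT letters in Gzmb and Nkg7 (8.30%) and the T-box letters in Nkg7 and Xcl1 (3.98%). No 2 matches overlapped. A match describes the letters and shows no binding.

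The companion genes of the killer program were read from lists of receptors, adaptors, effectors, inhibitors, cytokines, regulators and ligands, each gene by its probe set of highest mean. Of the 104 genes measured in these lists 37 were tested between groups, and 0 of the 37 were called (limma), where 0.0884% of all tested probe sets were. The other 67 were too dim for the test. In 7 of the 8 lists EGFP tumor 2 was the highest tumor for more than 7 in 10 of the genes measured, and over all 12393 genes it was the highest for 3046.

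Of 21 other NK receptor genes EGFP tumor 2 was the highest for 18, a count that includes genes near 0 in every tumor. In EGFP tumor 2, 14 of the 21 exceeded the olfactory receptor level, as 9993 of all 12393 genes did. There 9 of the 21 were at least 2-fold higher than in EGFP tumor 1, as were 651 of all genes. Klrc1, the inhibitory NKG2A chain that pairs with Klrd1, read 5.3, 181, 2.8 and 6.2, in the tumor order used above. Klra17 read 0.6, 145, 7.5 and 6.6. It is listed as a member of the Ly49 family, which does not show that NK cells expressed it here. Slamf7, a receptor of the SLAM family, read 6.8, 148, 5.1 and 9.5. Fcgr4, an Fc receptor mainly of myeloid cells, read 7.9, 444, 18.6 and 21.1. The Ly49 and NKG2 genes are close relatives, and their probe sets can share signal. Not every receptor followed. Klra1, Klra8 and Klrc3, chosen after their values were seen, read 0.9 or less in every tumor. Of these Klra8 and Klrc3 still count among the 18. Klra5 and Klra7, also chosen afterwards, were highest in the p62-EGFP tumors, at 4.4, 4.2, 7.3 and 8.8, and 0.4, 1.3, 5.3 and 3.3.

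Among the adaptors and kinases below these receptors, Hcst (DAP10), through which Klrk1 signals, was chosen after its values were seen and read 13.3, 62.2, 13.5 and 15.8. Tyrobp (DAP12), an adaptor shared with myeloid cells, read 113, 1111, 177 and 184, and Fcer1g, the Fc receptor gamma chain, 44.4, 887, 80.9 and 96.9. Lcp2 (SLP-76), a scaffold of lymphocyte and myeloid signalling, read 24.8, 295, 24.4 and 27.3, and Vav1 2.9, 59.8, 10.8 and 8.9. Tyrobp and Fcer1g also read higher in each p62-EGFP tumor than in EGFP tumor 1. In all, 9 of 13 genes were at least 2-fold higher in EGFP tumor 2 than in EGFP tumor 1. The kinase Zap70, chosen after its values were seen, was lowest in EGFP tumor 2, at 117, 50.9, 101 and 91.5.

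The granule and death list was mixed, with 6 of 17 genes at least 2-fold higher in EGFP tumor 2 than in EGFP tumor 1. Srgn (serglycin), the granule proteoglycan, read 115, 1089, 134 and 175, and Gzmk 10.5, 170, 9.7 and 6.0. Ctsw, a cathepsin of killer lymphocytes, read 6.9, 104, 13.7 and 11.3, and Ctsc, which activates granzymes and is also made by myeloid cells, 448, 2079, 781 and 843. Fasl, the death ligand, read 9.6, 82.4, 1.3 and 8.1 and was chosen after its values were seen. The granzymes Gzmd, Gzme, Gzmf, Gzmg and Gzmn, also chosen afterwards, read 5.5 or less in every tumor. Of the remaining granzymes Gzmc read 0.9, 7.3, 20.7 and 12.2, with the p62-EGFP values the highest, and Gzmm 19.7, 17.6, 18.3 and 18.0. Of the granzyme inhibitors, Serpinb9, which blocks granzyme B, read 35.0, 258, 37.7 and 45.4, and Serpinb6b 8.1, 86.5, 8.8 and 14.7. Serpinb9b read 2.0, 24.2, 19.9 and 20.6 and Serpinb6a 701, 806, 717 and 689, so neither set EGFP tumor 2 apart from the p62-EGFP tumors.

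Cytokines of activated killer cells were also highest in EGFP tumor 2 where named here. Ifng, interferon gamma, read 0.4, 112, 0.2 and 3.1, the chemokine Ccl3 11.9, 337, 1.5 and 2.9, and Ccl5 85.6, 1056, 45.9 and 61.4. For Ccl3 and Ccl5 the p62-EGFP values were the lowest of the 4. Ccr2, a chemokine receptor of monocytes and lymphocytes, read 13.4, 136, 20.7 and 38.2. Of the 11 genes of this list 7 were at least 2-fold higher in EGFP tumor 2 than in EGFP tumor 1.

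Cytokine receptors and their signalling molecules showed smaller gaps, with a median of 0.95 between the EGFP tumors over 19 genes. Il18r1, a chain of the interleukin-18 receptor, read 7.6, 80.6, 7.3 and 15.0, Jak3 8.2, 76.8, 12.7 and 22.4, and Stat4 3.5, 47.0, 14.6 and 7.8. Il7r, the receptor chain for interleukin-7, read 8.7, 113, 17.1 and 12.5. Il15, the cytokine that keeps NK cells alive, was chosen after its values were seen and read 11.7, 57.2, 21.4 and 19.3.

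Of 10 transcription factors of the lineage 8 were highest in EGFP tumor 2. Eomes, one of a pair of T-box factors that NK cells need, read 11.0, 81.4, 13.9 and 15.3, and Tbx21 (T-bet), the other, 10.5, 46.8, 4.8 and 3.9. Tox read 7.9, 52.3, 7.7 and 10.9. Id2, which many cell types express, read 265, 729, 573 and 554. All 4 were highest in EGFP tumor 2. Nfil3 and Gata3, chosen after their values were seen, were not. They read 263, 128, 122 and 143, and 51.8, 38.4, 30.2 and 28.3.

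The measured ligands that killer receptors read on a target cell followed the members less closely. In EGFP tumor 2, 2 of 9 were at least 2-fold higher and 1 at least 2-fold lower than in EGFP tumor 1. Cd48, a ligand of the receptor 2B4 that is found on leukocytes, read 22.0, 340, 19.6 and 28.3, and the adhesion molecule Icam1 20.2, 187, 18.8 and 27.1. Nectin2, a ligand of the activating receptor DNAM-1, read 130, 46.8, 61.1 and 46.2, and Clec2d, a ligand of a lectin-like NK receptor, 6.0, 24.9, 8.1 and 0.8. The Raet1, H60 and Ulbp1 ligands of Klrk1, and H2-T23, were listed but had no probe set annotated to them alone, so they have no value here.

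**Figure D3:**
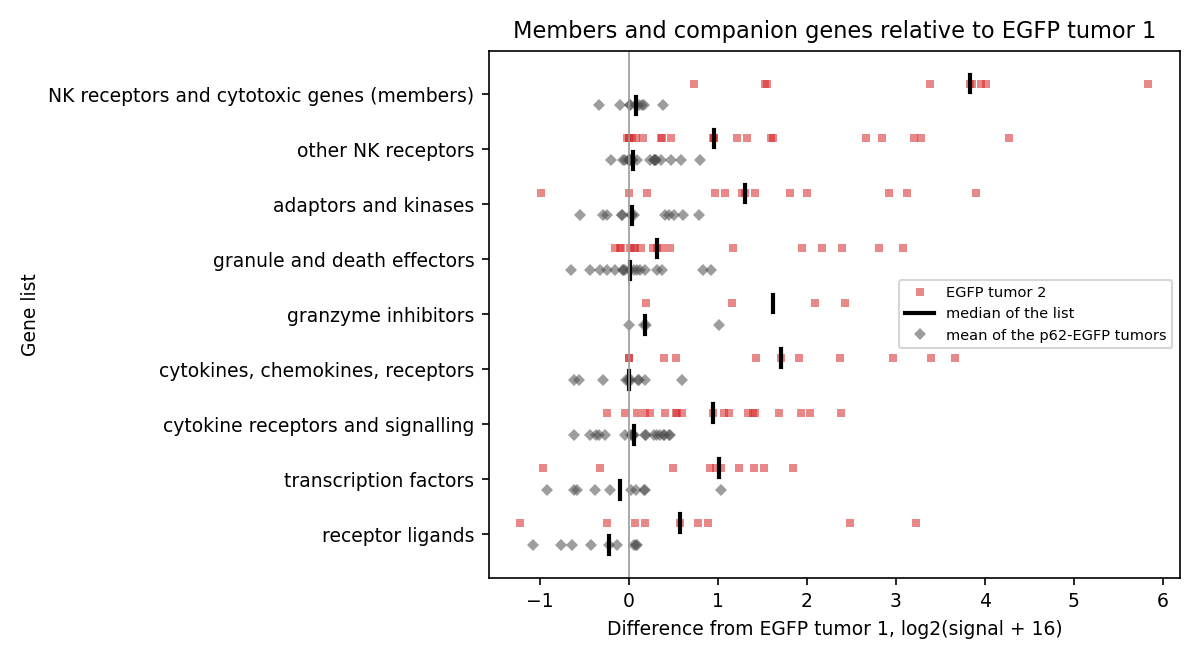
Difference from EGFP tumor 1 on log2(signal + 16) for each measured gene of the members and of 8 companion lists: red squares for EGFP tumor 2, grey diamonds for the mean of the p62-EGFP tumors, black bars for list medians. The member median is 3.84 for EGFP tumor 2 and 0.08 for the p62-EGFP tumors; the comparisons share EGFP tumor 1.

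Markers of other host cells moved with the members, and their part in these values was not tested. All 11 T cell genes measured were highest in EGFP tumor 2, with summed signals of 53.3, 1094, 38.2 and 56.2, and none was listed at 0. Cd3d read 0.5, 219, 0.6 and 6.6, Cd3g 7.4, 203, 5.4 and 8.9, Cd8b1 3.5, 161, 6.1 and 7.7, and Cd8a 5.0, 148, 9.2 and 6.1. These encode the CD3 chains of the T cell receptor complex and the CD8 coreceptor, which conventional NK cells lack at their surface. The label of the gene set is thus met in part: the defining NK receptor Ncr1 reached 38.0 in EGFP tumor 2, Klrb1c has no value, and T cell transcripts stood beside them in a nude host. Shared T and NK genes behaved alike, with all 5 highest in EGFP tumor 2. Cd2 read 1.7, 117, 1.8 and 1.5, Thy1 24.5, 180, 41.7 and 57.8, and Ltb 14.6, 102, 9.3 and 9.9.

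Macrophage genes were also highest in EGFP tumor 2 for 12 of 12, with summed signals of 1297, 9286, 2344 and 2394. Aif1 read 20.9, 516, 43.8 and 43.6, Fcgr1 33.3, 552, 68.3 and 82.6, C1qc 120, 1263, 197 and 198, and C1qb 147, 1406, 298 and 247. Macrophage genes differed from the members in the other 3 tumors. Both p62-EGFP tumors lay above EGFP tumor 1 for 11 of the 12, with median differences of 0.72 and 0.69. For the members the medians were 0.02 and 0.13, and both tumors lay above it for 4 of 9. Over all genes both lay above it for 5105 of 12393, so the count of the members is near that share. The members were also dim in these 3 tumors, where the pseudocount shrinks their differences. Both p62-EGFP tumors also lay above EGFP tumor 1 for 6 of 6 pan-leukocyte genes. Among them were Ptprc (CD45) at 60.8, 1264, 95.9 and 115 and Cd52 at 60.4, 1206, 95.8 and 134. Laptm5 read 50.9, 726, 88.6 and 108, and Coro1a 64.4, 851, 80.7 and 95.5. Whether the lists differ in this respect was not tested.

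Other host and tumor markers were less alike. B cell genes were low, at summed signals of 45.7, 146, 48.6 and 37.7, with Cd79b at 1.3, 32.4, 2.0 and 3.1. Of 5 dendritic cell genes 4 were highest in EGFP tumor 2, with a median of 0.45 between the EGFP tumors. Itgax, which macrophages and NK cells share, read 19.4, 235, 31.6 and 28.4, and Ccr7 5.6, 46.8, 2.4 and 2.3. Cd209a read 7.2, 15.6, 10.5 and 11.1 and Flt3 7.2, 14.9, 7.8 and 5.6. Zbtb46, chosen after its values were seen, was lowest in EGFP tumor 2, at 44.0, 29.9, 36.3 and 32.7. Neutrophil genes did not exceed 20.1 in any tumor. Mast cell genes summed to 634, 436, 87.3 and 48.8. Endothelial genes summed to 292, 386, 144 and 173, so for both of these lists EGFP tumor 1 kept a high level where the members did not. Fibroblast genes summed to 949.7, 3226, 2015 and 2773, with Dcn (decorin) at 97.2, 683, 214 and 203. Skeletal muscle genes were highest in p62-EGFP tumor 1, at 3401 summed, against 451 in EGFP tumor 2, 40.5 in p62-EGFP tumor 2 and 30.3 in EGFP tumor 1. Epithelial genes were lowest in EGFP tumor 2 as a sum, at 727 against 1861 in EGFP tumor 1 and 1610 and 2389 in the p62-EGFP tumors. Of these 6 genes 3 were at least 2-fold lower in EGFP tumor 2 than in EGFP tumor 1. Cldn3, a tight junction gene, read 416, 41.1, 180 and 299.6, Epcam 351, 109, 361 and 660.3, and Krt18 729.6, 254, 545 and 627. Krt8 read 137, 80.5, 101 and 239. Krt19, chosen after its values were seen, was higher in EGFP tumor 2 than in EGFP tumor 1, at 93.6, 156, 333 and 341.

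**Figure D4:**
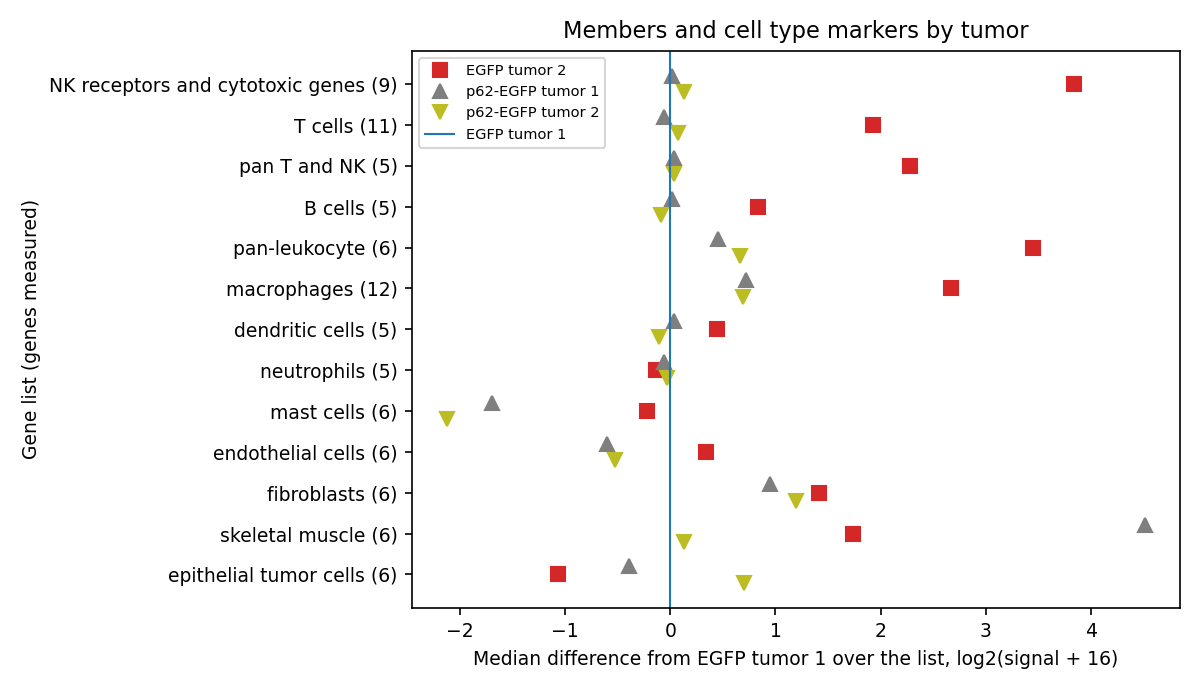
Median difference from EGFP tumor 1 on log2(signal + 16) for the members and 12 marker lists, 1 point for each of the other 3 tumors, with the number of genes measured in brackets. The points of EGFP tumor 2 reach furthest right for the members (3.84) and the pan-leukocyte genes (3.45), and left of EGFP tumor 1 for epithelial genes (-1.06).

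Genes outside the set were ranked by how close their profile over the 4 tumors, centred on its mean, lay to the mean member profile. The measure was the Euclidean distance on log2(signal + 16) over 4 tumors, among 7847 genes with a tested probe set. The closest was Il18bp, a secreted inhibitor of interleukin-18, at a distance of 0.14 and signals of 25.1, 385, 24.2 and 25.2. Lst1, a leukocyte gene (0.15), Cd48 (0.19) and Lcp2 (0.22) followed, and then Irf8, a transcription factor of myeloid and lymphoid cells (0.23). Irf8 read 53.7, 552, 40.8 and 49.6. Trav9d-3, a T cell receptor alpha variable segment, came next at 0.25, with 15.4, 287, 11.8 and 19.9, and as a member of a multigene family it can share signal with other segments. Arhgdib and Coro1a (both 0.28), Slc15a3 (0.29) and Fpr2 (0.32) completed the first 10. Within the set, the distance ran from 0.15 for Prf1 to 2.25 for Gzmb, whose gap was wider, and 2.20 for Xcl1, whose gap was narrower than the mean profile. With 4 tumors and 1 of them set apart, such a distance describes the height of that tumor and little else.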

How the data were processed

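One Affymetrix Mouse Genome 430A 2.0 array was hybridized per tumor with biotin-labelled cRNA from 6 ug of total RNA, as the labels' protocols state. Signal intensities per probe set, on a linear scale, were deposited, and MAS5 is the tool the submitters' processing notes name. Its version and settings are not given in the sources used here, and detection calls were not used. The trimmed means (2% at each end) of the arrays lay within 10% of each other, so the authors' scaling was kept.

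The 64 control probe sets were left out. Gene names come from the platform annotation and cover 20380 probe sets with 1 symbol. Signals were transformed as log2(signal + 16), and 13576 probe sets at or above the 40th percentile of the mean entered limma 3.58.1 (R 4.3.3; eBayes with a variance trend). Two-sided p-values were adjusted by Benjamini-Hochberg over all of these, and the fit was tested on simulated data. Genes were represented in lists by the probe set of highest mean. The members and gene lists were chosen with earlier results of these data known. Named genes are all members, up to 4 genes per list with the largest absolute difference between the EGFP tumors, and the 10 genes with the closest profile, with predicted genes passed over; others are said to have been chosen afterwards. Motifs were searched with Python 3.11.15. Alternatives covered scaling, pseudocount, filter, variance model, replicate block, averaging of probe sets and leaving out each tumor. The 4 arrays limit the precision.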

Additional observations from a re-analysis of the deposited data

How the results depend on the processing

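The group differences of the 9 member genes kept their sign in every alternative that kept EGFP tumor 2; without it those of Klrk1 (-0.34) and Nkg7 (-0.0935) kept it and the other 7 turned. No tested member was called in an alternative that kept all 4 tumors, but with a pseudocount of 1 only Klrk1 was tested and with the filter at the 60th percentile none was, so those counts say nothing. The member count called ran from 0 to 6 when each tumor was left out, 0 of 0 tested without EGFP tumor 2 and 6 of 6 tested without EGFP tumor 1 (limma, lowest adjusted p = 2.96e-06). The lowest limma adjusted p of a member with all tumors was 0.293. The median group difference of the members ran from -2.51 to -1.29 with all tumors, and from -3.93 to 0.0838 when each tumor was left out. Between the EGFP tumors the median ran from 2.59 to 4.68. Over all probe sets the count called was 12, and 6 with no filter, 7 with the filter at the 60th percentile, 37 with the replicate block, and 0 to 2835 when each tumor was left out. Same-numbered tumors share a number in the labels, which do not say whether they shared a batch. The correlation of their deviations, 0.08, does not decide this. The replicate block called 0 members.

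For those 7 the ranges over the left-out tumors were -3.94 to 0.0203 for Klrd1, -1.15 to 0.38 for Ncr1, -4.00 to 0.0183 for Gzma, -5.68 to 0.15 for Gzmb, -3.27 to 0.11 for Prf1, -1.47 to 0.0838 for Il2rb and -0.56 to 0.18 for Xcl1. Medians of 6 of the 8 companion lists turned too, not those of transcription factors and ligands, with ranges of -0.86 to 0.0527 for other NK receptors, -1.38 to 0.0358 for adaptors, -0.42 to 0.0128 for granule genes, -1.04 to 0.18 for granzyme inhibitors, -1.71 to 0.001 for cytokines and -0.90 to 0.0544 for cytokine receptors. At the lower signals of Ncr1, Il2rb and Xcl1, the gaps between the EGFP tumors moved with the pseudocount. They ran from 0.61 to 3.40, 0.75 to 2.46 and 0.31 to 1.34. The linear signals carry no detection calls, so levels near the bottom of the scale have no order.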
